A study of Rattus norvegicus with 9 samples.

Results

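The genes described here encode the digestive proteases of the pancreatic acinar cell: the trypsin gene Prss1, the chymotrypsin genes Ctrb1, Ctrc and Ctrl, the elastase genes Cela1, Cela2a and Cela3b, and the carboxypeptidase genes Cpa1 and Cpb1. A gene was taken where a probe set had exactly 1 symbol in the platform annotation and that symbol was on the list. This gave 9 of 9 listed genes, with 1 probe set each, out of 14217 genes with a named probe set. The RNA came from pancreatic islets of male Wistar rats that were 7 weeks old at the start and then spent 30 days on standard chow, with 8% of calories from fat, or on a cafeteria diet, with 66%. Islets were freed with collagenase, separated on a density gradient and picked by hand. There were 4 standard and 5 cafeteria arrays, each described as an independent sample; a further standard sample that the design text names was not analysed here. The labels name no other treatment.

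Acinar cells, which surround the islets, make most of the protein of pancreatic juice. They store the proteases as inactive precursors (zymogens) in granules, and in the gut enteropeptidase activates trypsinogen, after which trypsin activates the others. Islet endocrine cells are not a main site of these transcripts, so in an islet preparation they serve as markers of exocrine tissue. In RNA from a whole preparation, more acinar cells and more RNA per acinar cell cannot be told apart.

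The acinar program is driven by PTF1, a transcription factor complex that binds an E-box together with a second element, the TC-box. The 250 bases upstream of the annotated start were available from RefSeq (build GRCr8) for 8 of the 9 genes, all except Cela2a. They were searched on both strands for the E-box form CACCTG and the TC-box core TTTCCC, whose matches do not overlap in the sequences shown. CACCTG was present in 6 of the 8, against 15.9% of 33469 promoters of the same length, and TTTCCC in 4 of the 8, against 22.0%. Both were present in Cela1, Cela3b, Ctrb1 and Prss1, against 3.23% of all promoters. These 4 are shown because they carry both elements; capitals mark every match, and a match is a string of letters, not a measured binding site. The windows are chr7:133665062-133665311 (minus strand) for Cela1, chr5:154920334-154920583 (minus) for Cela3b, chr19:56566979-56567228 (minus) for Ctrb1 and chr4:71330999-71331248 (plus) for Prss1.
Cela1: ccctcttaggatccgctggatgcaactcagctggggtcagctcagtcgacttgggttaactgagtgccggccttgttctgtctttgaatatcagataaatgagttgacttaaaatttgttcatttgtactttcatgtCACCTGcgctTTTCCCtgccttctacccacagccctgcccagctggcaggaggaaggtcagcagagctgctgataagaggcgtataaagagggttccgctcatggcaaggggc
Cela3b: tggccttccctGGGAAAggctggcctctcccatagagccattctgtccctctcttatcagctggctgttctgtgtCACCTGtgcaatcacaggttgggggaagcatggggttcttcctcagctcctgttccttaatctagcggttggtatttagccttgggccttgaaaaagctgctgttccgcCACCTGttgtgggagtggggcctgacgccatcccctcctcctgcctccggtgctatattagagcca
Ctrb1: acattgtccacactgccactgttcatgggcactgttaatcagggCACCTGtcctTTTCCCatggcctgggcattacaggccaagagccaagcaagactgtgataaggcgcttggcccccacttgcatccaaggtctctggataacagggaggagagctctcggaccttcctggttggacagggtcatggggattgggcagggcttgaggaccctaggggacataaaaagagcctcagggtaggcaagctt
Prss1: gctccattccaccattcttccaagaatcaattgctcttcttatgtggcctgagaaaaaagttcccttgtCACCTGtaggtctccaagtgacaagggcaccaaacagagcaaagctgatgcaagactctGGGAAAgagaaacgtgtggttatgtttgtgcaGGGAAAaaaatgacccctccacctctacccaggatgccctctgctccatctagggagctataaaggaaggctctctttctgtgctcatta
In Cela1 and in Ctrb1 the elements lie in the same order with 4 bases between them. That arrangement, CACCTGNNNNTTTCCC, was noticed after the sequences were read; it occurs in 0.0239% of the promoters, 8 in all, 2 of which are these genes. The nearest pair in Cela3b is 58 bases apart. The array data say nothing about binding at these letters, and the sharing of elements was not set against the expression values.

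The deposited values are linear signals, scaled by the authors to the same trimmed mean on every array. The median signal of an array ran from 147.0 to 166.6, and pairs of arrays correlated at 0.941 to 0.974. Diets were read from the titles. The separate diet characteristic contradicts the title in 9 of 9 samples, and each difference below would change sign if it were right. The islet hormone genes Ins1, Ins2, Iapp, Gcg, Sst and Ppy had group means from 24082 to 44664. The protease signals, from 69.8 to 1847, lie far below the highest signal of any array (46683 to 72297), and all 9 genes passed the filter, which asked for a mean signal of about 91.1. There is no read depth in such data, and precision rests on how many arrays there are and how widely they spread.

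As a group, the 9 protease genes had higher mean log2 signals in cafeteria islets. The arrays of each diet spread widely, and none of the differences passed the test. The log2 fold was above 0 for 9 of 9 genes, against 48.1% of the 18625 probe sets tested, with a median of 0.46 against -0.01. Leaving out standard replicate 3 lowered that median to 0.20, standard replicate 4 to 0.24 and cafeteria replicate 3 to 0.25. Leaving out standard replicate 1 raised it to 0.71, and cafeteria replicate 5 to 0.86. The genes move together from array to array (described further on), so these 9 signs are not 9 independent observations. Fewer genes were higher when some arrays were left out: 7 when replicate 3 of either diet was left out, and 8 when standard replicate 4, cafeteria replicate 1 or cafeteria replicate 4 was. With Benjamini-Hochberg adjustment in limma, 0 of 9 passed a threshold of 0.05, as did 0% of all probe sets tested, and the lowest adjusted p among the 9 was 0.839. Unadjusted, 2 of 9 had a p under 0.05, Cela3b and Ctrb1, against 3.01% of all probe sets in that direction. The diets did not separate fully for any of the 9; full separation with cafeteria higher held for 0.999% of the probe sets tested.

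**Figure D1:**
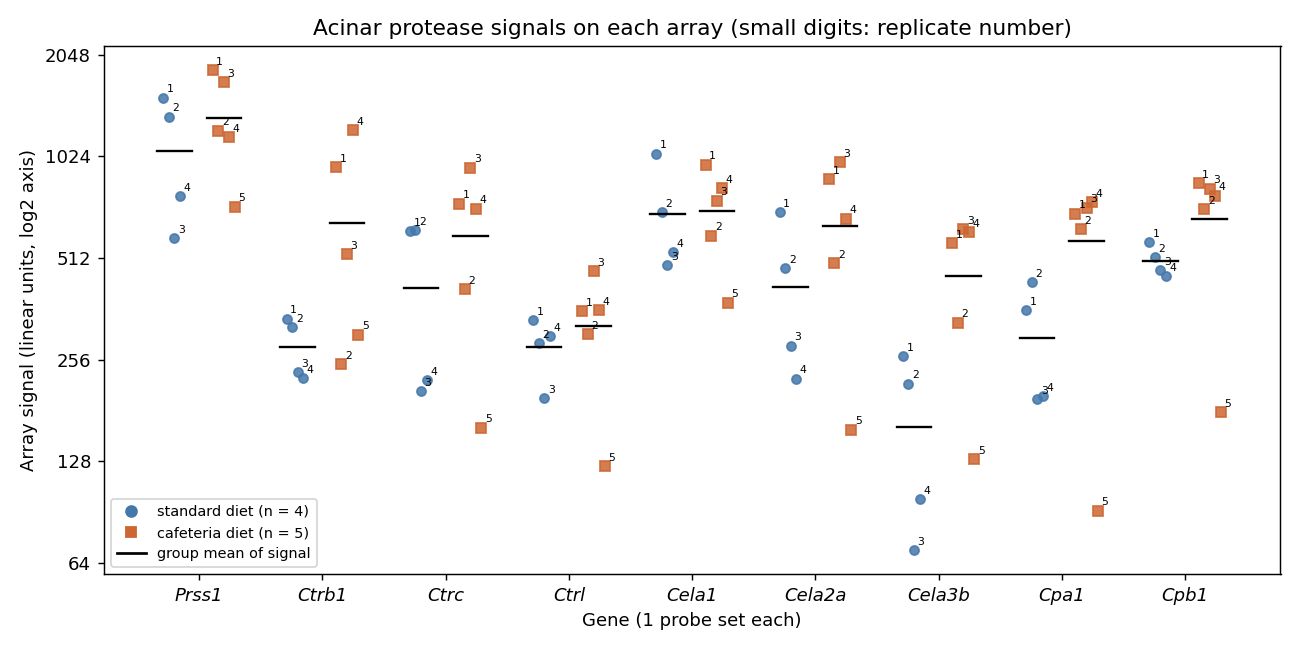
Array signal of the 9 protease genes on each of the 9 arrays, on a log2 axis in linear signal units. Circles are standard arrays, squares cafeteria arrays, digits replicate numbers and bars group means; cafeteria replicate 5 is the lowest array for 6 of the 9 genes, and the diets overlap for each gene.

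Prss1 encodes trypsinogen, whose active form starts the zymogen cascade. Its signals were 1528, 1343, 585 and 780 on standard replicates 1 to 4, and 1847, 1220, 1701, 1166 and 726 on cafeteria replicates 1 to 5. Both diets thus held arrays with high and with low signals, and only cafeteria replicates 1 and 3 lay above all standard arrays. Cafeteria exceeded standard by a log2 fold of 0.36, with a standard error of 0.30 (95% interval -0.29 to 1.00), and the exact two-sided permutation p was 0.365. With each array left out in turn the fold lay between 0.11 (standard replicate 3 out) and 0.57 (standard replicate 1 out).

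Among the chymotrypsins, which cut after aromatic and other large hydrophobic residues, Ctrb1 had the highest log2 fold of the 3 genes. Its signal was 339, 319, 235 and 226 on the standard arrays, a mean of 279.7 ± 57.6 (SD, n = 4), and 951, 248, 526, 1226 and 304 on the cafeteria arrays, a mean of 650.7 ± 424.0 (SD, n = 5). Cafeteria replicates 1, 3 and 4 were above all standard arrays, while replicates 2 and 5 fell within the standard range. The log2 fold was 0.94 with a standard error of 0.39 (interval 0.10 to 1.78), the limma adjusted p 0.839 and the exact permutation p 0.127. Without cafeteria replicate 4, which had the highest Ctrb1 signal, the fold was 0.65.

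Ctrc, chymotrypsin C, also cleaves trypsinogen itself and so tunes its activation and breakdown. Its signals were 616, 619, 206 and 223 in standard islets and 742, 414, 947, 716 and 161 in cafeteria islets. The standard group split into a high pair and a low pair, and the lowest array of all was cafeteria replicate 5. The log2 fold was 0.46 with a standard error of 0.47. It ranged from 0.20 when standard replicate 3 was left out to 0.86 when cafeteria replicate 5 was. Ctrl, a chymotrypsin-like protease, had signals of 335, 287, 197 and 301 against 356, 304, 469, 359 and 124. Its log2 fold was 0.11 with a standard error of 0.30 (interval -0.54 to 0.76). The sign of Ctrl turned without standard replicate 3 (-0.04) or cafeteria replicate 3 (-0.05), and the fold was 0.40 when cafeteria replicate 5 was left out.

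The 3 elastase genes had log2 folds from 0.03 to 1.37. Differences between genes were not tested. Cela3b had signals of 262, 218, 69.8 and 99.0 in standard islets, a mean of 162.2 ± 92.5 (SD, n = 4), and 567, 330, 623, 611 and 130 in cafeteria islets, a mean of 452.2 ± 215.9 (SD, n = 5). Cafeteria replicates 1 to 4 lay above all standard arrays, and replicate 5 lay between the standard ones. For 3 of the 9 genes (Cela3b, Cpa1 and Cpb1) at least 4 cafeteria arrays lay above all standard arrays, against 5.03% of the probe sets tested.

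For Cela3b the log2 fold was 1.37 with a standard error of 0.45 (interval 0.40 to 2.34), the highest value of the 9 genes. The exact permutation p was 0.0556, where the smallest that 126 splits allow is 0.0079, and the limma adjusted p was 0.839. With each array left out in turn the fold lay between 1.07 and 1.74. Of the 9 probe sets, that of Cela3b was the only one that did not pass when the filter was set at the 60th percentile.

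Cela2a, which encodes an elastase of the second class, had signals of 700, 478, 281 and 225 against 876, 494, 983, 669 and 159. Its log2 fold was 0.49 with a standard error of 0.45; it fell to 0.24 without standard replicate 4 and was 0.90 without cafeteria replicate 5. Cela1 had signals of 1042, 700, 487 and 532 in standard islets and 969, 597, 756, 825 and 378 in cafeteria islets. It was the only one of the 9 with its highest signal on a standard array. The log2 fold of Cela1 was 0.03 with a standard error of 0.27 (interval -0.55 to 0.60), and its sign turned with 5 of the 9 arrays left out (-0.12 to -0.02).

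The carboxypeptidases trim the peptides that the endopeptidases leave: carboxypeptidase A takes aromatic or aliphatic residues off the C-terminus, and carboxypeptidase B takes basic ones. The Cpa1 signal was 358, 434, 195 and 199 on standard arrays and 693, 623, 721, 750 and 91.4 on cafeteria arrays. Thus 4 cafeteria arrays were close to one another and above all standard arrays, and the fifth was below all of them. The log2 fold was 0.72 with a standard error of 0.50 (interval -0.37 to 1.80; exact permutation p = 0.357), and 1.26 without cafeteria replicate 5.

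Cpb1 showed the same layout, with 571, 516, 472 and 453 against 853, 713, 821, 784 and 179. Its standard arrays were the most even of the 9 genes, the highest being 1.26 times the lowest, whereas the cafeteria arrays spanned 4.77 times. The log2 fold was 0.23 with a standard error of 0.36 and an exact permutation p of 0.762; leaving out cafeteria replicate 5 gave 0.64, and leaving out cafeteria replicate 1 gave 0.10. The 9 exact permutation tests, 1 per gene, were not adjusted for their number, and the highest p was 0.944 (Cela1).

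**Figure D2:**
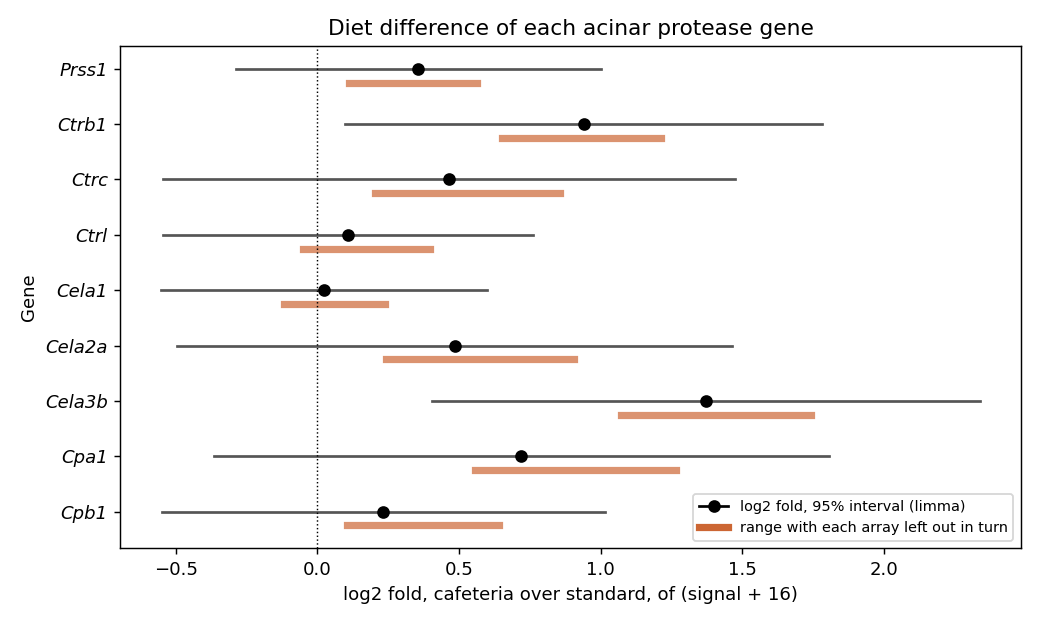
The log2 fold of cafeteria over standard, on the (signal + 16) scale, for each protease gene. Points and thin lines are limma's estimates and 95% intervals, not adjusted for the number of probe sets; thick lines show the range with each array left out in turn. The points run from 0.03 for Cela1 to 1.37 for Cela3b, and the thick lines of Cela1 and Ctrl cross 0.

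Signals spread widely within a diet. Within the cafeteria group, the highest Cpa1 signal was 8.21 times the lowest, that of Cela2a 6.19 times and that of Ctrc 5.89 times. The ratio of the mean signals of the diets was 1.94 for Cpa1, 1.51 for Cela2a and 1.43 for Ctrc. The SD within diets (log2 scale) ran from 0.50 for Cela1 to 0.99 for Cpa1 with a median of 0.76, against a median of 0.26 over all probe sets tested. Among the 1000 probe sets nearest in mean signal, each of the 9 genes stood between the 94.6th (Cela1) and the 99.9th percentile (Cpa1) of that SD. Diet took up 44.1% of the sum of squares of Cela3b and 32.9% of that of Ctrb1, but 0.0798% for Cela1. The median was 8.56% over the 9 genes and 7.91% over all probe sets tested.

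The spread had a common pattern. Summed over the 9 genes, the signal was 5751, 4913, 2729 and 3038 on standard replicates 1 to 4, and 7854, 4943, 7547, 7105 and 2251 on cafeteria replicates 1 to 5. Cafeteria replicates 1, 3 and 4 were therefore the highest, and cafeteria replicate 5 was the lowest, below both low standard arrays. Taking each gene against its own 9-array mean, the average log2 level was -0.29 ± 0.51 (SD, n = 4) on the standard diet, against 0.23 ± 0.80 (SD, n = 5) on the cafeteria diet. Cafeteria replicate 1 was among the 3 highest arrays for 9 of 9 genes and cafeteria replicate 3 for 8. Standard replicate 3 was among the 3 lowest for 9 of 9, and standard replicate 4 and cafeteria replicate 5 for 8 each.

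Pearson's r between pairs of these genes over the 9 arrays had a median of 0.84 and ran from 0.48 to 0.97 (36 pairs, a description, since the arrays are shared). With group means removed the median was 0.88. Without that removal, the median with each array left out in turn stayed between 0.81 and 0.86. Cela2a and Ctrc were the closest pair (r = 0.97), followed by Cpa1 and Cpb1 (0.94), both carboxypeptidase genes. The pairs with the lowest r all involved Ctrb1, from 0.48 with Ctrl to 0.65 with Cela2a. On cafeteria replicate 5, the lowest array for most of the genes, the Ctrb1 signal of 304 was still above 2 of the 4 standard arrays.

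Relative to the other 8 genes on the same array, Cela3b stood apart by diet. Its relative log2 level was -0.21, -0.29, -0.97 and -0.65 on the standard arrays and 0.38, 0.30, 0.57, 0.61 and 0.26 on the cafeteria arrays. All cafeteria arrays were above all standard ones, cafeteria replicate 5 included. The group means differed by 0.95. Cela3b was singled out after the 9 relative levels had been seen, it was the only one whose diets did not overlap, and no test was made. Cela1 went the other way, with a mean of 0.31 in standard and -0.25 in cafeteria islets, but cafeteria replicate 5 (0.36) lay among the standard arrays. A ratio within an array shows unequal change and does not say which gene changed. The subtraction also takes each gene to swing as widely as the other 8. Over the 9 arrays the slope on their mean was 1.48 for Cela3b and 0.54 for Cela1. How much of the 2 differences follows the common level of the arrays was not tested. The share of all probe sets whose diets separate on such a relative level was not counted.

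**Figure D3:**
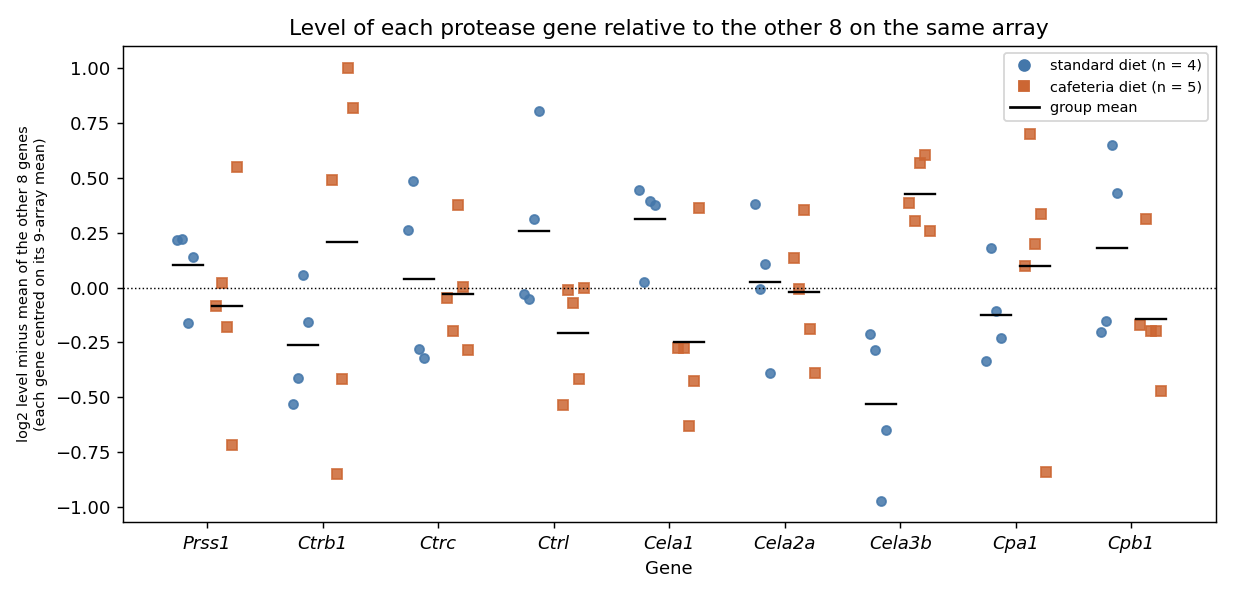
For each protease gene, its log2 level minus the mean of the other 8 on the same array, each gene first centred on its 9-array mean. Circles are standard arrays, squares cafeteria arrays and bars group means; the diets are apart for Cela3b, whose cafeteria arrays run from 0.26 to 0.61 and standard arrays from -0.97 to -0.21, and overlap for the other 8 genes.

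Of the other trypsin and kallikrein genes on the list, 5 of 12 were named and 3 passed the filter, with 2 higher, 1 lower and none passing the test. The tissue kallikrein gene Klk1 had a log2 fold of 0.29 with a standard error of 0.28, its relative Klk1b3 -0.28 with 0.27 and the trypsin gene Prss3b 0.30 with 0.56. The median of the 3, 0.29, turned to -0.03 when standard replicate 4 was left out. Prss2 and Prss3, named after their values were seen, did not pass the filter and were not tested. The Prss2 signals were 11.4, 70.2, 67.8 and 4.1 in standard islets and 109.3, 183.7, 209.8, 188.9 and 62.6 in cafeteria islets, so 4 cafeteria arrays were above all standard ones. Prss3 had signals of 58.2, 13.7, 21.0 and 34.5 in standard islets and 121.8, 99.5, 248.6, 122.2 and 62.2 in cafeteria islets, so that these dim values did not overlap. Trypsin genes form a family of close copies, and whether their probe sets take up each other's RNA was not tested.

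The list of lipase, amylase and ribonuclease genes was, like the proteases, highest in mean log2 level on cafeteria replicates 1, 3 and 4 and lowest on cafeteria replicate 5. Its level on standard replicate 1 (0.42) was close to that on cafeteria replicate 4 (0.44), and its summed signal was highest on standard replicate 1 (6151). The ribonuclease gene Rnase4, named after its values were seen, was lowest on cafeteria replicate 1 (448), with 537 on cafeteria replicate 5. Of 12 listed genes 8 were named and tested, with 7 higher, 1 lower and a median log2 fold of 0.35; none passed. Leaving out standard replicate 4 gave a median of 0.17, and leaving out cafeteria replicate 5 gave 0.62. Cel, the bile salt-dependent lipase, had 0.66 with a standard error of 0.32, Pnliprp2 0.65 with 0.55, Pnliprp1 0.43 with 0.36 and pancreatic lipase (Pnlip) 0.43 with 0.36. The pancreatic amylase gene Amy2a3, named after its values were seen, was the lower one at -0.19 with a standard error of 0.58. Its signal was 3174, 1373, 588 and 470 in standard islets and 1406, 823, 1880, 1195 and 251 in cafeteria islets, the highest being standard replicate 1.

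Zymogen granule genes were mostly dim, with 10 of 13 named and 3 tested. The granule membrane protein gene Gp2 had a log2 fold of 0.54 with a standard error of 0.29, and syncollin (Sycn) 0.40 with 0.46. Dmbt1, a mucin-like secreted protein gene, had -1.16 with 0.53, and its signal on standard replicate 1 was 1742, against 83.5 to 435 on the other arrays. Of 4 named acinar transcription factor genes, Bhlha15 (0.15) and Nr5a2 (0.09) were tested. Ptf1a, a subunit of PTF1, had mean signals of 62.6 ± 31.2 (SD, n = 4) and 51.2 ± 26.5 (SD, n = 5), below the filter. Gata4, also below the filter, was not tested and was named after its values were seen. It lay lower on all cafeteria arrays, with signals of 96.7, 107.8, 94.5 and 96.3 in standard islets and 57.8, 82.5, 44.6, 83.1 and 30.9 in cafeteria islets. How many probe sets separate in that direction was not counted.

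Among 10338 other genes, those most like the proteases were ranked by Pearson's r between each gene and the mean profile of the 9 over the 9 arrays. The highest were Pnliprp1 (0.97), Cel (0.96), Pnliprp2 (0.96), Rnase1l2 (0.95), Pnlip (0.94), Mrps7 (0.93), Prss3b (0.92), Dpf3 (0.92), Zcchc9 (0.91) and Zfp455 (0.91). Of these 10, 5 stand on the acinar lists used here. The values are the top of a long ranking over few arrays and carry no test.

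**Figure D4:**
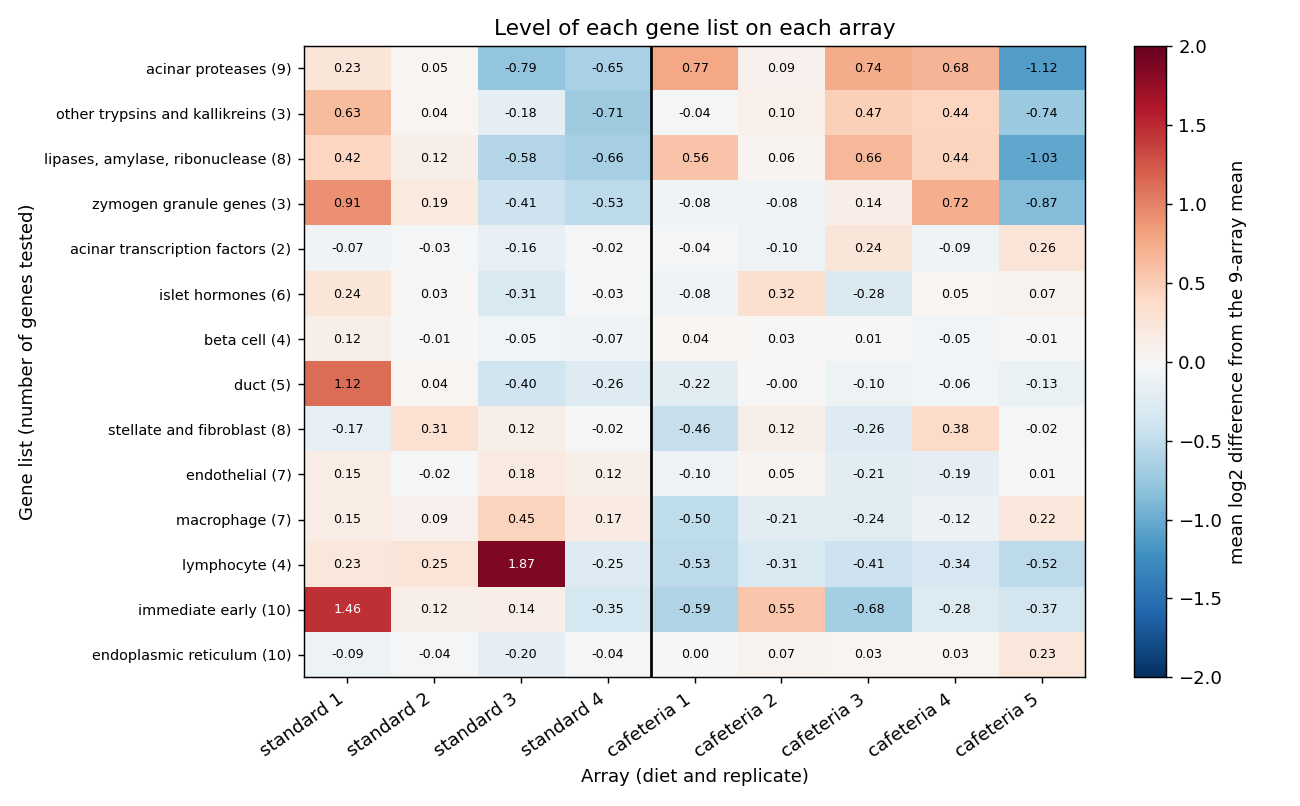
Mean log2 level of each gene list on each array, as the difference from the 9-array mean of each gene, with the number of genes tested in brackets. Red is above and blue below that mean. The acinar proteases and the lipase list run from -1.12 and -1.03 on cafeteria replicate 5 to 0.77 and 0.66 in the same diet. The hormone and beta cell lists stay within 0.33 of 0. Wide swings also occur outside the acinar lists. The lymphocyte list reaches 1.87 on standard replicate 3, and on standard replicate 1 the immediate early list reaches 1.46 and the duct list 1.12.

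Markers of other cells in the preparation were set beside the protease level, and their part in it was not tested. Islet hormone genes had a median log2 fold of 0.07 (4 of 6 higher) and a summed signal of 171354 to 250625 in standard and 174691 to 263660 in cafeteria islets. Beta cell genes had 0.02 (2 of 4 higher). The hormone median turned to -0.04 when standard replicate 3 was left out. Duct genes had -0.18 (1 of 5 higher), or 0.11 when standard replicate 1 was left out. The summed signal of the 7 named duct genes was 4102 to 7447 against 3451 to 4807, the highest on standard replicate 1. Stellate and fibroblast genes had -0.08 (3 of 8 higher) and endothelial genes -0.32 (1 of 7 higher). The stellate median turned to 0.03 when cafeteria replicate 1 was left out, and the endothelial one was -0.21 when standard replicate 3 was.

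Macrophage genes were lower in 7 of 7 cases, with a median of -0.30, or -0.15 when cafeteria replicate 2 was left out. Of all 18625 probe sets tested, 9672 were lower. The summed signal of the 9 named macrophage genes was 7075 to 12259 against 3975 to 6655. The mean log2 level of the 7 tested macrophage genes overlapped between diets, with 0.22 on cafeteria replicate 5 and 0.09 on standard replicate 2. Lymphocyte genes were lower in 4 of 4 with a median of -0.87. The summed signal of the 7 named lymphocyte genes was highest on standard replicate 3 (3870), an array with low protease signals. Without that array the median was -0.44. Immediate early genes were lower in 10 of 10 with a median of -0.64. They were highest on average on standard replicate 1, and when it was left out 8 of 10 were lower with a median of -0.23. Endoplasmic reticulum genes were higher in 7 of 10 with 0.18. In none of these lists did a gene pass the adjusted threshold of limma. The beta-actin 3'/5' ratio, a measure of RNA integrity, was 3.00 to 4.84 on standard and 2.79 to 5.63 on cafeteria arrays, and with it as a covariate the median log2 fold of the 9 protease genes was 0.44.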

How the data were processed

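Single-colour arrays with 31099 probe sets were hybridised with islet RNA, 4 from the standard and 5 from the cafeteria diet. The deposited values are linear intensity signals that the authors computed with MAS5, according to the submitters' processing notes. Those notes state no version. The trimmed mean, with 2% removed from each end, was 500.0 on every array, so no further scaling was applied. After 57 control probe sets were left out, 31042 remained, of which 20826 have 1 symbol. All 9 Entrez identifiers carry the same symbols in RefSeq.

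The test was limma 3.58.1 under R 4.3.3 on log2(signal + 16), with a term for diet alone and a trend of the variance on intensity. Adjustment (Benjamini-Hochberg) covered the 18625 probe sets at or above the 40th percentile of mean log2 signal. The added 16 makes folds of dim genes smaller than they are. The fit was tested on simulated data. Single genes were also tested by exact two-sided permutation over 126 splits (Python 3.11.15). Gene lists are described by counts and medians. Alternatives were the pseudocount, the scaling, the filter, the variance model, array weights, each array left out, the replicate number as a block and the beta-actin ratio. The rule for named genes takes all 9 proteases, at most 4 genes per other list, by smallest unadjusted p, and the 10 genes most alike. Genes were named from the acinar lists; the lists of other cells and of stress are given by counts, medians and summed signals only. Medians of lists with an array left out were added after the data had been seen. The members and lists were chosen with earlier results of these data known.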

Additional observations from a re-analysis of the deposited data

Results flagged for a closer look

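The array cafeteria replicate 5 stood far from the other cafeteria arrays for both carboxypeptidase genes. For Cpa1 its signal was 91.4 against 623 to 750 on the other 4, and the gap to the nearest array was 0.908 of the group's log2 range. For Cpb1 it was 179 against 713 to 853, a gap of 0.883 of the range. These were 2 of 20 groups of arrays looked at (9 genes and their mean, in each diet), where chance marks about 1 in 20. The 9 genes move together from array to array, so values of the same array are not independent.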

How the results depend on the processing

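In limma, 0 probe sets passed in the main setting and 1080 had an unadjusted p under 0.05. The count was 0 to 2 with each array left out in turn; the 2 were called without standard replicate 2, and neither has a single gene symbol here. It was 0 in the 11 other alternatives. The median log2 fold of the 9 protease genes lay between 0.20 (without standard replicate 3) and 0.86 (without cafeteria replicate 5) with an array left out, and between 0.41 and 0.86 in the other alternatives, the lower with the 60th percentile filter, where 8 genes were tested. With the replicate block it was 0.86, the value without cafeteria replicate 5, which has no partner there, and the block made no call. Same-numbered arrays did not deviate together (correlations of -0.38, -0.05, -0.12 and 0.03), so the numbers were not taken as pairs. Cela1 turned to -0.12 and -0.08 without standard replicates 3 and 4, and to -0.10, -0.02 and -0.05 without cafeteria replicates 1, 3 and 4. Ctrl turned to -0.042 and -0.049 without standard and cafeteria replicate 3. With an array left out, Cela1 reached 0.24 at most and Ctrl 0.40. No protease gene passed in any alternative, and the lowest adjusted p was 0.380 (Cela3b, array weights). Averaging the probe sets of a gene was not run, as each gene has 1.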
